A study of Homo sapiens with 6 samples.

Results

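This account concerns chromosome 11 in a 4C-seq study of K562 cells, and above all the outer 10 Mb of its short arm, chr11:1-10000000 (hg19), which holds the beta-globin locus near 5.2 Mb. The members are the HindIII fragments listed on chr11. They number 9835 distinct fragments out of 206896 over all chromosomes and libraries (186498 outside chr5), and 745 of them start in chr11:1-10000000. The measure is how many fragments carry 1 read or more (covered fragments) in windows of 2 Mb, given as a share of all covered fragments outside chr5. These shares in the 3 groups are the values by which the stretch was chosen, so they are given as a description and no test of them is offered as support.

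In 4C-seq, crosslinked chromatin is cut, religated and amplified from 1 fragment, the viewpoint, here at FGF18 on chromosome 5. K562 is a human chronic myeloid leukaemia line with erythroid features. All 6 libraries came from K562 cells, with HindIII as the first and DpnII as the second enzyme. The treatment protocol names CRISPR excision for all 3 groups, EV included; below, excised cells means S1KO and DKO. The EV group (2 libraries) carries an empty vector and has the treatment label untreated, the S1KO group (2 libraries) lacks the silencer 1 region, and the DKO group (2 libraries) lacks the silencer 1 and silencer 2 regions. Whether each group is a clone or a pool of cells is not given in the sources used here, and the series' design text calls the replicates biological without saying whether they were separate cultures. The comparison is of how contacts captured from the viewpoint spread over another chromosome in cells with and without these silencer regions.

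A contact between chromosomes is rare and is captured from few cells, so a fragment on another chromosome tends to appear in 1 library and be missing from the next. Regions that share a nuclear neighbourhood are therefore compared by how many different fragments are hit per window, and not by the reads of single fragments, which also carry amplification. The tip of 11p holds the oncogene HRAS, the insulin gene INS and the imprinted genes IGF2, KCNQ1 and CDKN1C. Farther inward lie NUP98 (a nuclear pore protein), STIM1 (the calcium sensor of the endoplasmic reticulum), RRM1 (a subunit of ribonucleotide reductase) and the beta-globin cluster, then the antiviral gene TRIM22 and the cell cycle kinase gene WEE1. The beta-globin genes encode the beta-type chains of haemoglobin, and in erythroid cells they are driven by a shared locus control region.

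No gene positions on hg19 were used, so genes are placed by their order in the GRCh38.p14 annotation of RefSeq and windows by hg19 coordinates. In that order HRAS is protein-coding gene 24 from the tip, IGF2 is 75, RRM1 is 103, HBB is 138, HBE1 is 142, TRIM22 is 160 and WEE1 is 238, of 1301 on chromosome 11. The globin genes are set in a large cluster of olfactory receptor genes. Of the 34 protein-coding genes between RRM1 and HBB 26 are olfactory receptors, and of the 17 between HBE1 and TRIM22 11 are. OR51V1 and OR51B4 are the nearest on either side.

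HindIII cuts at AAGCTT, which reads the same on both strands, and its sites bound the fragments counted here. Promoter windows of 300 bases from the RefSeq table (GRCh38.p14) differed in base composition along the stretch. From the tip to RRM1 they had a median GC content of 67% and 0 of 59 held the site. From after RRM1 to WEE1 the median was 47.5% and 4 of 102 (3.92%) held it, against 6.69% of 792 promoters farther along chromosome 11 and 5.87% of 27305 in the whole table. These shares of promoters do not measure how many HindIII fragments a window holds. The pair of olfactory receptor promoters among these 4 is shown as an example of cut sites within the receptor cluster, 5′ to 3′ along the gene, with each AAGCTT in capitals. The first is chr11:4903533-4903832 on the + strand and the second chr11:5986936-5987235 on the - strand, both GRCh38.p14.
OR51A7: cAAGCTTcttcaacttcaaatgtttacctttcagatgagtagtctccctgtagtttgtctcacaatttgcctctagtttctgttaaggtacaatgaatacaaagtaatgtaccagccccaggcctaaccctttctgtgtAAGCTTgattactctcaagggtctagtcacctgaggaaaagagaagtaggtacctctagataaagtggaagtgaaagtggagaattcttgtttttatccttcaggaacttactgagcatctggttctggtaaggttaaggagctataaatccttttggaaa
OR52L1: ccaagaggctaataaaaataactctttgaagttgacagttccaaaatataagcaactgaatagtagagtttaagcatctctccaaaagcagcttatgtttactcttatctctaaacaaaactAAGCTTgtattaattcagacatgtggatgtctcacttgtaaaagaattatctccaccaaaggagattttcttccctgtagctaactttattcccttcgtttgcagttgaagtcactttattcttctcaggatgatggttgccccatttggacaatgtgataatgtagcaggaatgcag

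The libraries listed 29847 to 42352 covered fragments outside chr5, on 551067 to 1697917 reads. EV held 39928 and 42352, S1KO 41585 and 35317, and DKO 34182 and 29847. The share of all reads on chr5 was 22.2% and 11.6% in EV, 22.4% and 19.8% in S1KO, and 27.6% and 38.1% in DKO. On both measures EV and S1KO overlapped, while DKO had fewer covered fragments and a larger share on chr5 than either. The part of these differences in the results below was not tested. Shares after thinning to equal reads outside chr5, and DKO minus EV over all covered fragments, are given in the last section.

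The outer 10 Mb of the short arm took a larger share of covered fragments in both kinds of excised cells than in EV. In EV replicates 1 and 2 the stretch held 125 and 155 covered fragments, which is 0.313% (95% Wilson interval 0.263% to 0.373%) and 0.366% (0.313% to 0.428%) of those outside chr5. In S1KO it held 198 and 166, or 0.476% (0.414% to 0.547%) and 0.470% (0.404% to 0.547%). In DKO it held 163 and 130, or 0.477% (0.409% to 0.556%) and 0.436% (0.367% to 0.517%). All 4 libraries of excised cells lay above both EV libraries. The interval of EV replicate 2 nevertheless overlaps those of all 4, and that of EV replicate 1 overlaps that of DKO replicate 2. Reads are not independent molecules here, so the intervals cover counting error only.

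The EV mean was 0.340% ± 0.0374, the S1KO mean 0.473% ± 0.00432 and the DKO mean 0.456% ± 0.0292 (SD over 2 libraries). That is 1.39 times the EV level in S1KO and 1.34 times in DKO, differences of 0.134 and 0.117 percentage points. Between DKO and S1KO the difference was -0.0169 points and the libraries overlapped. It changed sign, to 0.00378 points, without DKO replicate 2. In 10-Mb windows over the whole genome outside chr5, all 4 libraries of excised cells lay above both EV libraries in 9.61% of 281 windows, and this is the background for the order seen here. On chromosome 11 the order was found in 3 of 14 such windows. These were this stretch, chr11:60000001-70000000 and chr11:120000001-130000000, so it is not particular to the short-arm end.

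For chromosome 11 as a whole the groups lay closer together. Its share of covered fragments was 5.15% ± 0.213 for EV, 5.48% ± 0.121 for S1KO and 5.16% ± 0.169 for DKO, with S1KO above EV without overlap and DKO overlapping EV. The rest of the chromosome, from 10 Mb on, took 4.81% ± 0.176, 5.01% ± 0.125 and 4.70% ± 0.140. Its libraries overlapped between EV and either kind of excised cells. The rest of the short arm stood at 1.65% ± 0.0240 for EV, 1.75% ± 0.110 for S1KO and 1.55% ± 0.0527 for DKO. There DKO lay below EV, and S1KO lay above it by a narrow margin (1.671% in the lower S1KO library against 1.669% in the higher EV library). The long arm stood at 3.16% ± 0.152, 3.26% ± 0.0156 and 3.15% ± 0.0871. At the far end of the long arm the last 5 windows took 0.333% ± 0.00356 for EV, 0.307% ± 0.00599 for S1KO and 0.344% ± 0.0311 for DKO. There S1KO lay below EV without overlap and DKO overlapped EV, so the order at the short-arm end was not repeated in these last 5 windows.

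**Figure D1:**
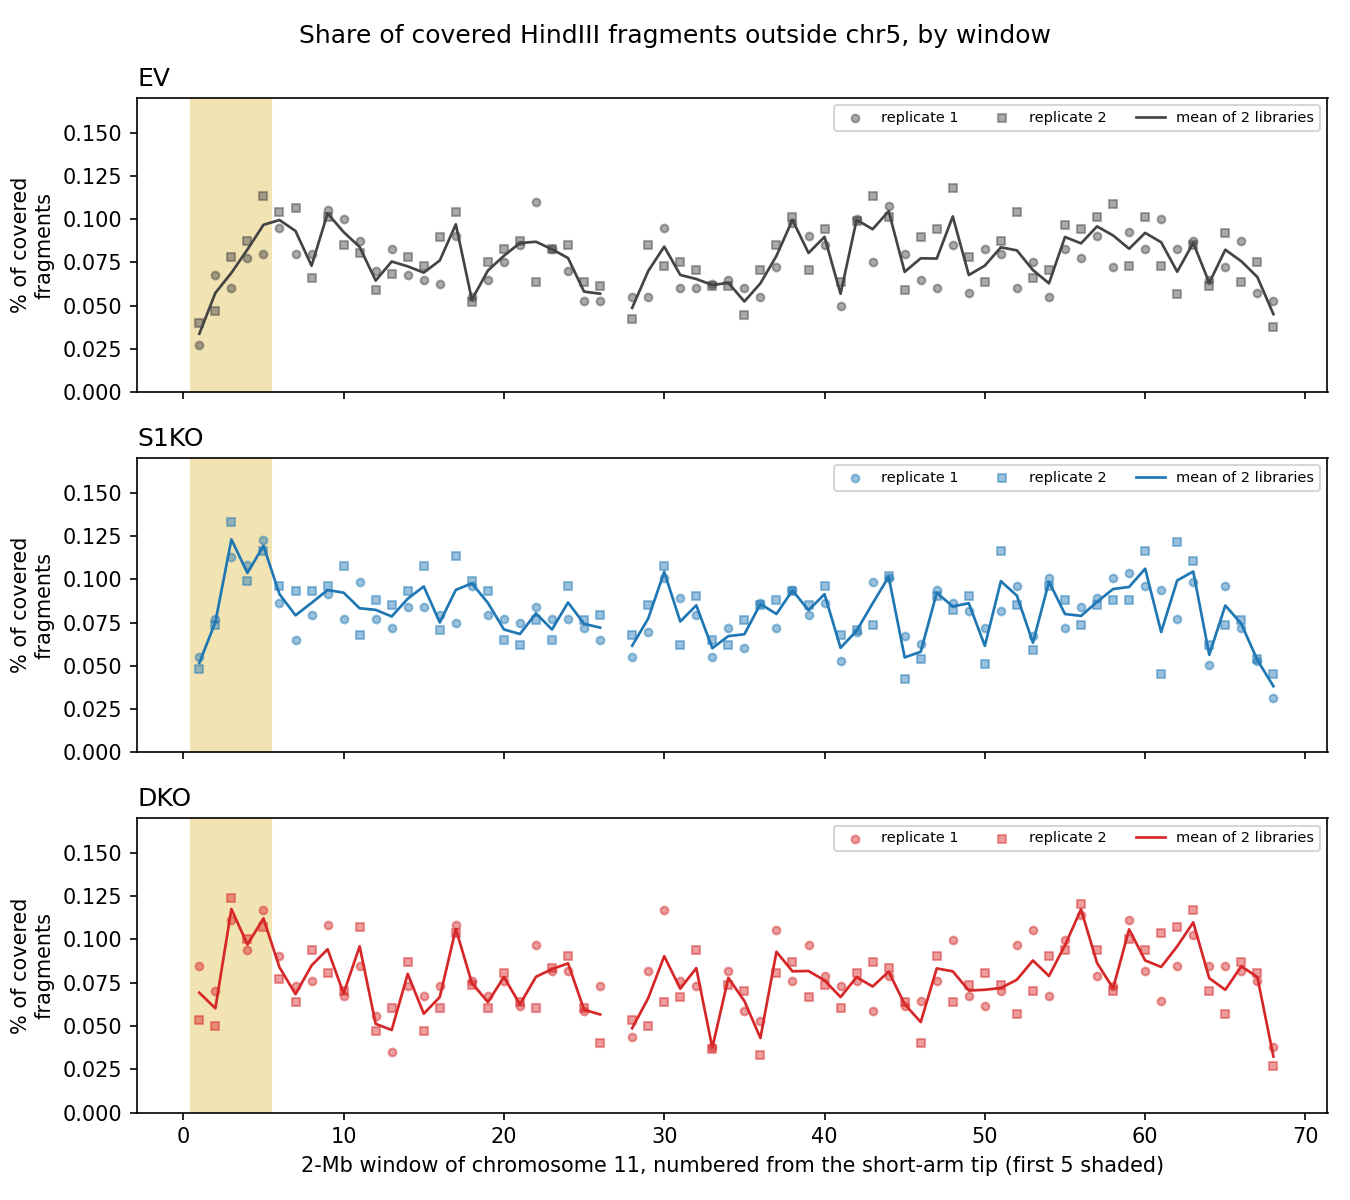
Share of covered HindIII fragments outside chr5 (percent, y axis) in each 2-Mb window of chromosome 11 (x axis, numbered from the short-arm tip) for EV, S1KO and DKO; points are libraries, lines are means of 2 libraries, and the first 5 windows are shaded. The mean line starts near its lowest in EV and S1KO but not in DKO. In S1KO and DKO it reaches its highest value of the chromosome at window 3, while in EV window 3 stands at 0.0690%. In DKO window 56 on the long arm stands nearly as high, at 0.1174% against 0.1176%. Window 27 holds no covered fragment.

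Set against the rest of the chromosome, the end was sparser in EV and denser in the excised cells. Covered fragments per 2-Mb window in the first 5 windows were divided by those per window in the other 62 windows that hold any. This ratio was 0.828 and 0.919 for the EV libraries, 1.20 and 1.14 for S1KO, and 1.23 and 1.17 for DKO. The EV libraries lay below 1 and the other 4 above it. The EV mean was 0.874 ± 0.0645, that of S1KO 1.17 ± 0.0399 and that of DKO 1.20 ± 0.0413. Against the rest of the short arm alone the means were 0.862 for EV, 1.14 for S1KO and 1.24 for DKO, and against the long arm alone 0.880, 1.19 and 1.19. With the end taken as 20 Mb the EV mean was 1.05, so the side of 1 in EV holds for the outer stretch and not for a stretch that long.

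**Figure D2:**
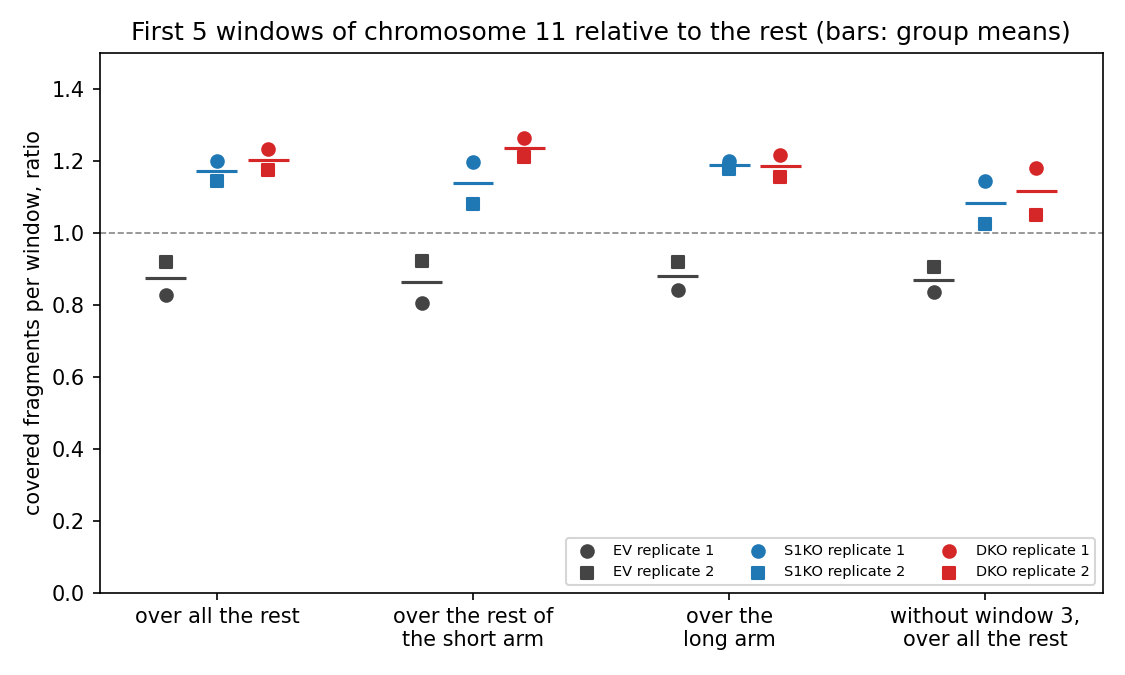
Covered fragments per 2-Mb window in the first 5 windows of chromosome 11 divided by those per window elsewhere on it (y axis), by library (points) with group means (bars), for 4 choices of what is compared (x axis). EV libraries lie below the dashed line at 1 and S1KO and DKO libraries above it in each choice, with EV at 0.828 and 0.919 and the other 4 libraries between 1.14 and 1.23 for the first choice.

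Within the end, the 5 windows differed in level and in how far the groups lay apart. The outermost window, chr11:1-2000000, was among the sparsest of the 67 windows of the chromosome in EV, with 11 and 17 covered fragments (ranks 67 and 66 from the highest). S1KO held 23 and 17 there and DKO 29 and 16. As shares these are 0.0338% ± 0.00890 for EV, 0.0517% ± 0.00507 for S1KO and 0.0692% ± 0.0221 for DKO. Both excised groups lay above EV, and the DKO libraries lay far apart, at 0.0848% and 0.0536%.

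The next window, chr11:2000001-4000000, held 27 and 20 covered fragments in EV, 32 and 26 in S1KO and 24 and 15 in DKO. Its shares were 0.0574% ± 0.0144, 0.0753% ± 0.00236 and 0.0602% ± 0.0141. S1KO lay above EV, whereas DKO overlapped EV and lay below S1KO.

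The window chr11:4000001-6000000, in which the beta-globin locus lies, had the widest gap of the 5 between EV and the excised cells in percentage points. It held 24 and 33 in EV, 47 and 47 in S1KO, and 38 and 37 in DKO. The shares were 0.0690% ± 0.0126 for EV, 0.123% ± 0.0142 for S1KO and 0.118% ± 0.00905 for DKO. Counted from the highest of the 67 windows of chromosome 11, it ranked 50 and 33 for the EV libraries, 2 and 1 for S1KO, and 4 and 1 for DKO. It thus stood in the middle or lower part of the order in EV and at or near the top in the other groups. Its fold change over EV was log2 0.82 (SE 0.23) in S1KO and log2 0.75 (SE 0.25) in DKO, in edgeR's fit across all windows. In the same fit the outermost window, chr11:1-2000000, stood higher in DKO, at log2 1.04 (SE 0.34), and lower in S1KO, at log2 0.61 (SE 0.35).

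In chr11:6000001-8000000 the counts were 31 and 37 in EV, 45 and 35 in S1KO, and 32 and 30 in DKO. Both excised groups again lay above EV, at 0.104% ± 0.00644 and 0.0971% ± 0.00488 against 0.0825% ± 0.00688. By reads in place of covered fragments this window stood at log2 -0.065 for S1KO and -0.0060 for DKO, so its direction depends on the measure. In chr11:8000001-10000000 the counts were 32 and 48 in EV, 51 and 41 in S1KO, and 40 and 32 in DKO. Here the EV libraries lay far apart (0.0801% and 0.113%) and DKO, at 0.112% ± 0.00693, overlapped them, while S1KO at 0.119% ± 0.00463 lay above both. From the highest of the 67 windows it ranked 26 and 2 for EV, 1 and 3 for S1KO, and 1 and 4 for DKO. A rank near the top in the excised cells is thus not particular to the window of the beta-globin locus.

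Just beyond the boundary at 10 Mb the excised cells did not lie above EV. The window chr11:10000001-12000000 held 38 and 44 covered fragments in EV, 36 and 34 in S1KO, and 31 and 23 in DKO. As shares these are 0.0995% ± 0.00617 for EV, 0.0914% ± 0.00686 for S1KO and 0.0839% ± 0.00964 for DKO, with S1KO overlapping EV and DKO below it.

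**Figure D3:**
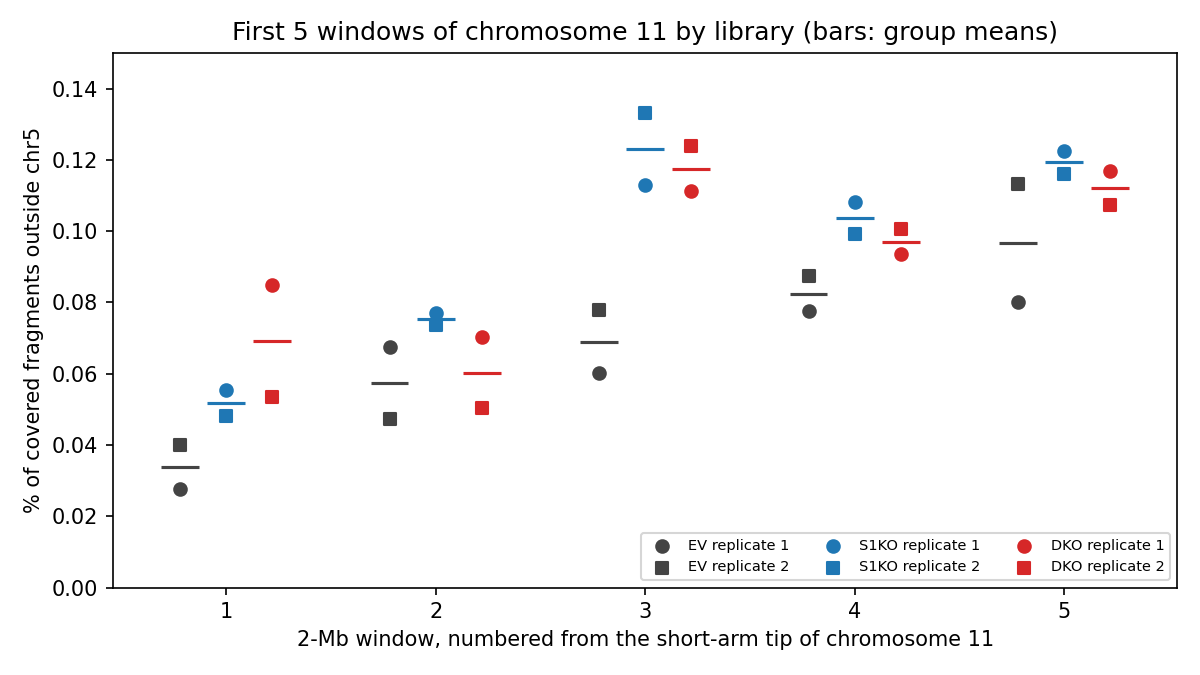
Share of covered fragments outside chr5 (percent, y axis) in the first 5 windows of chromosome 11 (x axis, 2 Mb each, numbered from the tip) by library, with bars at the group means. In window 3 the EV libraries sit at 0.0601% and 0.0779% and the other 4 between 0.111% and 0.133%; in window 5 the DKO libraries and EV replicate 2 overlap.

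Of these 5 windows, S1KO lay above EV without overlap in 5 and DKO in 3. Over all 1318 windows of 2 Mb with at least 60 covered fragments in the 6 libraries, such an order was found in 16.8% for S1KO and 17.5% for DKO, and the reverse order in 17.7% and 17.5%. Because the stretch was chosen on this contrast, nothing is read from that difference. The median of the 5 windows was log2 0.40 for S1KO against EV and 0.23 for DKO against EV, where the median of all 1318 was 0.01 in both. For DKO against S1KO it was -0.09 against -0.01, with 1 of the 5 windows above 0. In the 62 other windows of chromosome 11 the medians were 0.02 for S1KO against EV, -0.03 for DKO against EV and -0.12 for DKO against S1KO. The 3 groups share libraries between these comparisons, so the values are not independent of each other.

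No single 2-Mb window of chromosome 11 passed edgeR's quasi-likelihood test at an adjusted p of 0.05, in a fit over all windows outside chr5. For S1KO against EV 0 of 67 passed and 4 had an unadjusted p under 0.05, beside 0.152% and 6.75% of all windows. DESeq2 also called 0. For DKO against EV edgeR called 0 of 67 with 4 under 0.05 unadjusted, beside 0.0759% and 6.53% of all windows, and DESeq2 called 0. For DKO against S1KO edgeR called 0 with 5, beside 0.152% and 7.13%, and DESeq2 called 0. These shares of all windows are edgeR's, and none is given for DESeq2. Taken as 1 window of 10 Mb, chr11:1-10000000 stood at log2 0.48 (SE 0.11, edgeR adjusted p = 0.031) for S1KO against EV and at log2 0.43 (SE 0.11, edgeR adjusted p = 0.069) for DKO against EV. It ranked 1 of 281 by fold change for S1KO and 4 of 281 for DKO, and at -0.05 for DKO against S1KO it ranked 162. Of the 281 windows 3.91% passed for S1KO against EV, 1.78% for DKO against EV and 0% for DKO against S1KO, and in the upward direction 0.356% for S1KO and 0% for DKO. The stretch was chosen with results of this kind known, so this call is no independent evidence.

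**Figure D4:**
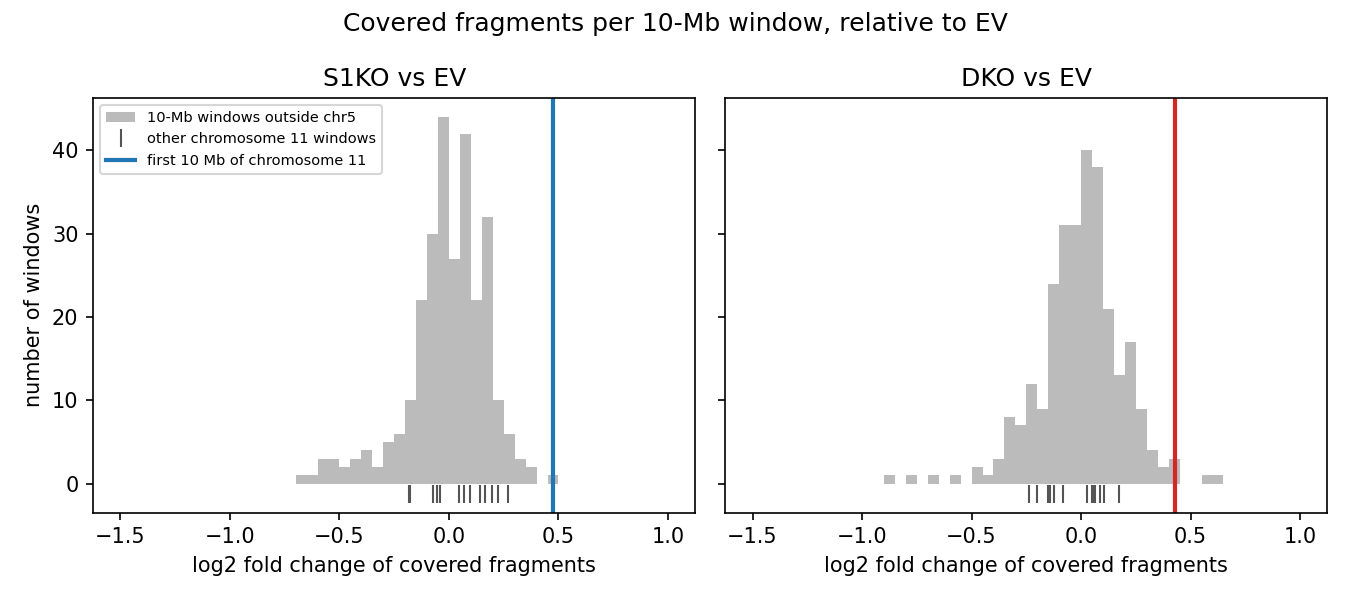
Number of 10-Mb windows outside chr5 (y axis) by log2 fold change of covered fragments (x axis) for S1KO and DKO over EV; the coloured line marks the first 10 Mb of chromosome 11 and the ticks its other windows. The line stands at 0.48 in S1KO and 0.43 in DKO, to the right of each other window of chromosome 11; both panels use the same EV libraries.

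Smaller windows placed the difference within the globin stretch unevenly. From 5 to 6 Mb, covered fragments numbered 10 and 15 in EV, 24 and 32 in S1KO, and 13 and 20 in DKO. From 4 to 5 Mb they numbered 14 and 18, 23 and 15, and 25 and 17. As mean shares, S1KO exceeded EV mostly from 5 to 6 Mb (0.0742% against 0.0302%, and 0.0489% against 0.0388% from 4 to 5 Mb). DKO exceeded EV by similar amounts in both, at 0.0525% from 5 to 6 Mb and 0.0650% from 4 to 5 Mb. In 500-kb windows chr11:5000001-5500000 held 9 and 9 in EV, 14 and 21 in S1KO, and 8 and 12 in DKO. Next to it, chr11:5500001-6000000 held 1 and 6 in EV, 10 and 11 in S1KO, and 5 and 8 in DKO. For the first the shares were 0.0219% ± 0.000912 for EV, 0.0466% ± 0.0182 for S1KO and 0.0318% ± 0.0119 for DKO. With so few fragments a window, these shares carry wide counting error.

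Near the beta-globin locus itself the coverage was thin. Between 5.2 and 5.3 Mb, 10 fragments that overlap this stretch (the first starts just outside it) were covered in any library, 4 of them in an EV library, 7 in an S1KO library and 4 in a DKO library. The short fragment chr11:5273154-5273724 (571 bp) had 53 reads in S1KO replicate 2 and 90 and 45 in the DKO libraries, and 0 in S1KO replicate 1 and in both EV libraries. The longer chr11:5243051-5250845 (7795 bp) was hit once per group, with 10 reads in EV replicate 1, 18 in S1KO replicate 1 and 43 in DKO replicate 2. These fragments show which libraries caught a ligation there. They do not measure a rate, since a fragment of another chromosome is either caught or missed in a library.

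Over the whole 10 Mb repeat hits were also few. Of its 745 covered fragments, 580 were seen in 1 library, 138 in 2, 27 in 3 and 0 in more. Among the 27, 1 was present in both EV libraries, 8 in both S1KO libraries and 8 in both DKO libraries. The same count was not made for the rest of the chromosome, and the stretch was chosen on its shares in these groups, so nothing is read from it. In the rest, the EV libraries shared 190 fragments, those of S1KO 131 and those of DKO 94. Of the 27 in the end, the one with most reads over all libraries was chr11:5764134-5766203. It had 123 reads in EV replicate 2, 24 in S1KO replicate 1 and 47 in DKO replicate 1. Another, chr11:1691157-1700164, had 53 reads in S1KO replicate 2 and 51 and 28 in the DKO libraries and 0 in EV. The other way, chr11:8626037-8628567 had 13 and 22 reads in the EV libraries, 26 in DKO replicate 2 and 0 in S1KO. Of the 27, 7 were absent from both EV libraries, 5 from both S1KO libraries and 5 from both DKO libraries. These were named after their values were seen.

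Replicates shared few fragments. In the end, the EV libraries shared 11 fragments (8.80% of replicate 1 and 7.10% of replicate 2), the S1KO libraries 23 (11.6% and 13.9%) and the DKO libraries 17 (10.4% and 13.1%). In the rest of the chromosome EV shared 190 (10.1% and 9.09%), S1KO 131 (6.40% and 7.27%) and DKO 94 (5.73% and 6.85%). Libraries of different groups shared as many in places. In the end EV replicate 1 and S1KO replicate 2 shared 17 (13.6% and 10.2%), EV replicate 2 and S1KO replicate 1 shared 19 (12.3% and 9.60%), and EV replicate 1 and DKO replicate 2 shared 7 (5.60% and 5.38%). Differences in sharing were not tested.

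By median reads per covered fragment the end lay near the rest of the chromosome. The medians were 8 and 38 in EV, 19 and 21 in S1KO, and 34 and 22.5 in DKO, against 10 and 34, 18 and 21, and 33 and 22 in the rest of the chromosome. In EV replicate 1, 43.2% of covered fragments in the end had at least 10 reads, against 52.9% in the rest. The other libraries differed less, in either direction. The largest fragment of the end held between 85 and 123 reads in every library. By reads the stretch took 0.306% and 0.382% of those outside chr5 in EV, 0.459% and 0.490% in S1KO, and 0.469% and 0.435% in DKO. The order by reads was that by covered fragments, with all 4 excised libraries above both EV libraries. The authors' deposited table called 1 fragment of the end at a q under 0.05, chr11:6977137-6979643 with 89 reads in EV replicate 1, and 8 in the rest of chromosome 11, of which 5 in EV libraries, 3 in S1KO and 0 in DKO. Over all chromosomes outside chr5 that table held 49 and 99 such calls for EV, 22 and 40 for S1KO, and 2 and 0 for DKO.

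Over all 6 libraries the end held 149 distinct covered fragments per window and the rest 147, with median lengths of 2541 bp and 2259 bp. In single libraries the median length in the end varied from 1908 bp in DKO replicate 2 to 3302 bp in DKO replicate 1, with no order by group. The share of distinct fragments seen in 2 or more libraries was 22.1% in the end and 17.1% in the rest.

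Elsewhere on chromosome 11 the windows with most covered fragments in EV were chr11:86000001-88000000 (0.105% ± 0.00436), chr11:16000001-18000000 (0.103% ± 0.00259) and chr11:94000001-96000000 (0.102% ± 0.0233). The sparsest were chr11:134000001-136000000 (0.0452%), which the chromosome end cuts short, chr11:54000001-56000000 (0.0488%), beside the empty window at the centromere, and chr11:68000001-70000000 (0.0525%). The densest, chr11:86000001-88000000, held 43 and 43 covered fragments in EV, 42 and 36 in S1KO, and 27 and 25 in DKO, with DKO below both other groups as a share. Over the 62 windows outside the end, S1KO lay above EV without overlap in 15 and below in 8, DKO above EV in 9 and below in 14, and DKO below S1KO in 19 and above in 9. For DKO against S1KO the background over all windows was 19% below and 19.2% above.

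Besides windows of the end, those with the lowest p, none of which passed, lay in the rest of the short arm and on the long arm. The window chr11:34000001-36000000 held 22 and 22 covered fragments in EV, 40 and 35 in S1KO, and 26 and 22 in DKO (S1KO over EV log2 0.86, SE 0.26). In chr11:106000001-108000000 there were 22 and 30 in EV, 42 and 34 in S1KO, and 23 and 27 in DKO (S1KO over EV log2 0.64, SE 0.25). In both windows S1KO lay above EV and above DKO without overlap, and in chr11:34000001-36000000 DKO also lay above EV. The window chr11:24000001-26000000 held 33 and 29 in EV, 30 and 30 in S1KO, and 12 and 18 in DKO (DKO over EV log2 -0.68, SE 0.31, and DKO over S1KO log2 -0.73, SE 0.31). The windows chr11:70000001-72000000 and chr11:28000001-30000000 stood at log2 -0.97 (SE 0.31) and -0.71 (SE 0.28) for DKO over S1KO. In chr11:70000001-72000000 the counts were 22 and 30 in EV, 36 and 30 for S1KO, and 18 and 10 for DKO. In these 3 windows DKO lay below S1KO without overlap. The sizes depend on single DKO libraries. For chr11:24000001-26000000 DKO over EV was -0.32 without DKO replicate 1 and -1.09 without DKO replicate 2, and DKO over S1KO was -0.37 and -1.14. In the same order DKO over S1KO was -1.01 and -0.49 for chr11:28000001-30000000 and -1.35 and -0.70 for chr11:70000001-72000000.

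All 4 libraries of excised cells lay above both EV libraries in 6 of the 67 windows of chromosome 11, beside 5.92% of the 1318 windows outside chr5. The 6 included 3 of the end (chr11:1-2000000, chr11:4000001-6000000 and chr11:6000001-8000000), 1 in the rest of the short arm (chr11:34000001-36000000) and 2 on the long arm (chr11:62000001-64000000 and chr11:124000001-126000000).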

How the data were processed

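The authors' deposited files list, per library, HindIII fragments with at least 1 read. The raw read counts per fragment are as deposited, per the file headers. A column headed RPMs is a deposited score of unstated scale and was not used. Each fragment's p-value and q-value come from the authors' deposited table. Bowtie2 2.2.5 and build hg19 are named in the submitters' processing notes; the interaction caller is not given in the sources used here. The members and lists were chosen with earlier results of these data known.

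Groups came from sample titles. A fragment belongs to the window of its first base, and covered means at least 1 read. Shares were computed over covered fragments outside chr5. Numbers of covered fragments in 1318 windows of 2 Mb (sum of at least 60 over 6 libraries) were fitted by the quasi-likelihood method of edgeR (version 4.0.16, R version 4.3.3; 1 fit of 3 groups, library size all covered fragments outside chr5, no further scaling, Benjamini-Hochberg over all windows), with DESeq2 1.42.0 as an alternative. The procedure was run on simulated data with changes set in DKO alone, and nothing above rests on its outcome. With 2 libraries a group, a p-value reflects the spread within groups over all 6 libraries, with each window's estimate drawn towards that of the other windows. Part of that spread may be technical. Named were the 5 end windows, the 3 highest and 3 lowest EV windows of the rest, the windows with the lowest p per comparison and the fragments of the globin stretch. No fragment of the end had reads in at least 5 libraries, the rule for naming others. The fragments named among those seen in 3 libraries fall outside that rule. Deviations of same-numbered replicates were uncorrelated between groups (-0.011 to 0.032 over 1318 windows), so replicate numbers were not used as pairs. Python 3.11.15, numpy 2.4.6, pandas 2.3.3, scipy 1.17.1 and matplotlib 3.10.9 were used.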

Additional observations from a re-analysis of the deposited data

Results flagged for a closer look

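The density ratio of the outer 10 Mb of the short arm to the rest of chromosome 11 lay on opposite sides of 1 in EV and in the excised cells. The mean was 0.874 in EV and 1.17 in S1KO, with both EV libraries below 1 and both S1KO libraries above it. It was 1.20 in DKO, again with both libraries above 1. These differences were not tested, since the stretch was chosen on this contrast.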

How the results depend on the processing

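Of 42 alternative counts of called chromosome 11 windows, 41 stayed at 0, the fit with the replicate block included; with 10-Mb windows 1 was called for S1KO against EV. Left out in turn, no library gave a call (0 to 0 in each comparison). The share of the end (DKO minus EV) was 0.0799 points over all covered fragments, 0.0552 with an end of 20 Mb, 0.0681 without the window from 4 to 6 Mb (chosen after seeing the data) and 0.0902 to 0.143 with 1 library left out. S1KO minus EV was 0.0898 with an end of 6 Mb, 0.0795 without that window and 0.107 to 0.160 with 1 library left out. DKO minus S1KO was -0.0596 with an end of 20 Mb, and lay between -0.0375 and 0.00378 with 1 library left out, changing sign without DKO replicate 2. The density ratio in EV was 0.805 at 10 reads or more, and with ends of 6 and 20 Mb 0.685 and 1.05. In S1KO it was 1.02 with an end of 6 Mb and 1.08 without the window from 4 to 6 Mb, and in DKO 1.07 and 1.12, and 1.14 with an end of 20 Mb. With 1 library left out the ratios were 0.828 to 0.919, 1.14 to 1.20 and 1.17 to 1.23. Named windows changed direction in 6 of 192 alternatives. For DKO over EV the window from 2 Mb stood at log2 -0.25 by reads, -0.18 without DKO replicate 1 and -0.15 without EV replicate 2, the window from 6 Mb at -0.0060 by reads and the window from 8 Mb at -0.011 without EV replicate 1. For S1KO over EV the window from 6 Mb stood at -0.065 by reads. With 1 library left out these windows from 2 and 8 Mb lay between -0.18 and 0.36 and between -0.011 and 0.49. The causes were not tested. Thinning each library to 551067 reads outside chr5 left the end at 0.313% and 0.370% in EV and 0.431% to 0.478% in the other 4 libraries.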
